A study of Mus musculus with 4 samples.

Results

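The 9 genes described here, Fos, Fosb, Jun, Junb, Jund, Ier2, Dusp1, Atf3 and Zfp36, were taken by symbol from the 31053 genes of the deposited feature list, and all 9 were found there. Their levels were read in T, B, NK, macrophage and neutrophil barcodes of 4 single-cell RNA libraries made from pre-diabetic female mice. The control libraries came from Ocabfl/fl mice, which carry the loxP-flanked allele of Ocab (gene symbol Pou2af1, a coactivator of transcription) without Cre, and the CD4-Cre libraries from Ocabfl/fl.CD4-Cre mice, so all mice carried the floxed allele. CD4-Cre is driven by the Cd4 promoter, which is also active in the precursors of CD8 T cells. In each genotype 1 library held flow-sorted CD45-positive cells from the pancreases of 4 pooled mice aged 12 weeks, and 1 held CD3-positive cells selected on magnetic beads from the pancreatic lymph node of 5 pooled mice aged 8 weeks. Tissue, age and the way cells were selected therefore differ together and cannot be told apart. With 1 pooled library a group no test was possible and no p-value is given: every interval below is a 95% interval for counting error only, and the spread between mice is unknown.

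Fos and Jun proteins are basic leucine zipper factors that pair to form AP-1, a transcription factor that binds the promoters and enhancers of many genes. Jun proteins can pair with one another, whereas Fos proteins need a Jun partner. Fos, Fosb, Jun, Junb, Ier2, Dusp1, Atf3 and Zfp36 are immediate early genes. Their transcripts appear within minutes of a signal without new protein synthesis and are then rapidly destroyed. Jund is usually transcribed more steadily. Dusp1 and Zfp36 act as brakes: Dusp1 is a phosphatase that inactivates MAP kinases, and Zfp36 (tristetraprolin) binds AU-rich elements and marks messages for decay. The same genes are known to be switched on while tissue is dissociated, warmed and sorted, so a level in a single-cell library does not by itself tell whether the transcript was made in the animal or during handling. No unhandled or transcription-blocked sample was analysed here.

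The 4 libraries held 3059 to 6963 barcodes and 14851217 to 32798133 unique molecular identifiers (UMIs, which count captured RNA molecules). Barcodes with at least 500 genes and at most 10% mitochondrial UMIs were kept, and a lineage was assigned from markers that include no member. T barcodes numbered 2026 in the pancreas control, 3729 in the pancreas CD4-Cre, 2756 in the node control and 5518 in the node CD4-Cre library. In the 2 pancreas libraries, control first, there were 938 and 1390 B, 258 and 358 NK, 135 and 134 macrophage, and 139 and 81 neutrophil barcodes. The node libraries were almost wholly T barcodes, as their selection would give, and their only other lineage of any size was 42 B barcodes in the control. Genes outside the gates followed the names with exceptions. The neutrophil genes S100a8, S100a9 and Il1r2 summed to 172456 and 144225 CPM (UMIs of a gene per 1000000 UMIs of the lineage) in pancreas neutrophils and to 14.4 and 10.8 CPM in pancreas T barcodes. Of the genes checked for B cells, Cd74 is also a macrophage gene, and that list was higher in macrophages, at 37744 and 42394 CPM, than in B barcodes, at 26084 and 27824 CPM. Tyrobp, checked for NK, was higher in neutrophils (6385 and 6020 CPM) than in NK barcodes (3224 and 2894 CPM). NK barcodes also held genes checked for T: Lck at 653 and 631 CPM, against 778 and 824 in T, and Cd3g at 260 and 225 CPM, against 1278 and 1253 in T. Pou2af1 in T barcodes was 5.25 and 4.73 CPM in the control libraries of pancreas and node and 0.595 and 0.112 CPM (9 and 3 UMIs) in the CD4-Cre libraries. In pancreas B barcodes it was 227 and 245 CPM. Pairs of libraries shared between 21 and 70 barcode sequences.

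Among the 5 pancreas lineages, neutrophils had the highest summed level of the 9 genes in both libraries. The sum was 29424 CPM in control and 27676 CPM in CD4-Cre neutrophils. Macrophages followed at 8020 and 8726 CPM, then B barcodes at 5535 and 5352, NK barcodes at 4562 and 4026, and T barcodes at 3242 and 3099 CPM. The order of the 5 lineages was the same in the 2 libraries, and T barcodes were lowest in both. Every level is a share of a lineage's own UMIs, and depth differed. The median barcode held 2344 and 2093 UMIs in neutrophils and 9017 and 10210 in macrophages. Of the 9 genes, 139 control neutrophil barcodes held 12258 UMIs and 135 macrophage barcodes 10619. In CD4-Cre, 81 neutrophil barcodes held 6381 and 134 macrophage barcodes 12889. Per barcode, neutrophils thus led macrophages narrowly in control and lay below them in CD4-Cre. Neutrophils made up 2.74% and 0.938% of the UMIs of all gated barcodes but 15.8% and 6.06% of the UMIs of the 9 genes. T barcodes gave 34.2% and 44.5% of those UMIs, more than any other lineage in number, because they were the most frequent: they held 53.9% and 61.5% of all gated UMIs.

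**Figure D1:**
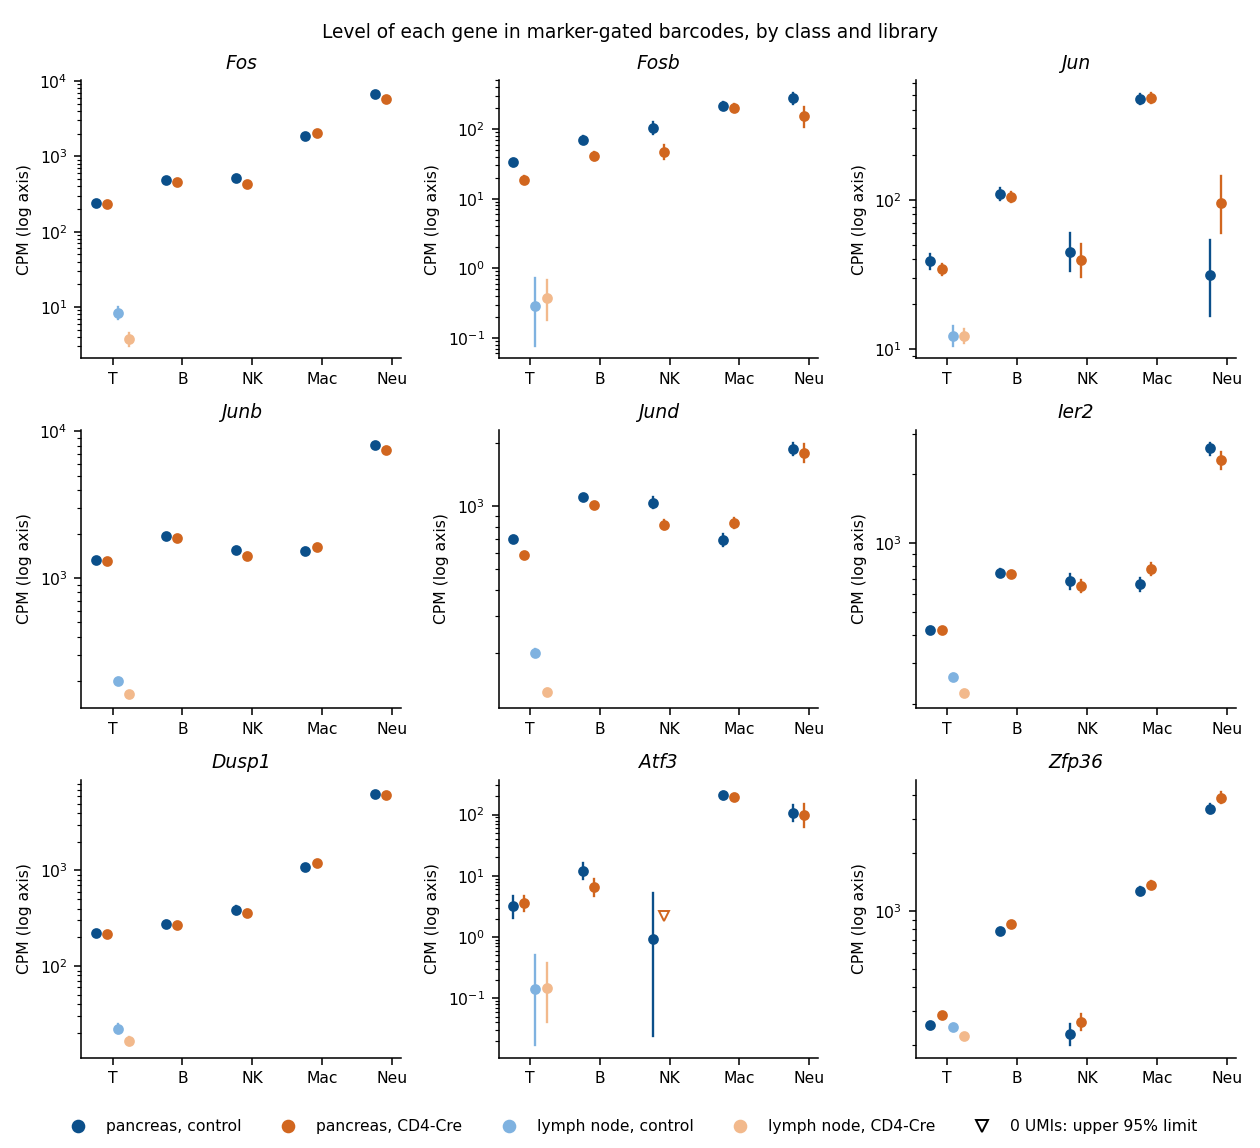
Level of each of the 9 genes (CPM on a log axis) in the 5 lineages of the 2 pancreas libraries and in node T barcodes, with 95% Poisson intervals for counting error. Fos, Junb, Ier2, Dusp1 and Zfp36 stand highest in neutrophils, Jun and Atf3 highest in macrophages.

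Fos, the partner that gave AP-1 its best known form, followed the order of the summed level, save that B and NK barcodes lay together. Its level in the pancreas control library was 242 CPM in T, 484 in B, 518 in NK, 1885 in macrophage and 6690 CPM in neutrophil barcodes. In the CD4-Cre library the same lineages had 230, 458, 423, 2030 and 5773 CPM. By this share neutrophils stood above macrophages, macrophages above B and NK, and those above T in both libraries. B and NK could not be ordered: the interval of their log2 ratio included 0 in each library. Relative to T, Fos was 27.6-fold (26.1 to 29.3) and 25.1-fold (23.6 to 26.8) higher in neutrophils and 7.78-fold and 8.84-fold higher in macrophages. Dusp1 had the same 2 lineages at the top. It reached 6335 and 6094 CPM in neutrophils, 1088 and 1204 in macrophages, 390.1 and 360.5 in NK, 279 and 269 in B and 222 and 215 CPM in T barcodes. Neutrophils exceeded T by 28.6-fold (26.9 to 30.4) and 28.3-fold (26.6 to 30.2), whereas B barcodes exceeded T by only 1.26-fold and 1.25-fold.

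The sequences upstream of Fos and Dusp1 are shown because these 2 genes had the widest gap between neutrophils and T among the members with over 100 UMIs in every pancreas lineage, and because both hold a cyclic AMP response element core, TGACGT, the letters bound by CREB and ATF proteins. They are from RefSeq on GRCm38.p6, written 5′ to 3′ on the gene's strand and ending at the base before transcription starts; for Dusp1 the bases nearest the start lie in an annotated exon and are left out. Fos is at chr12:85473640-85473889 on the plus strand, and Dusp1 at chr17:26508520-26508722 on the minus strand. Capitals mark the TGACGT match, extended to TGACGTCA where the letters read the same on both strands.
Fos: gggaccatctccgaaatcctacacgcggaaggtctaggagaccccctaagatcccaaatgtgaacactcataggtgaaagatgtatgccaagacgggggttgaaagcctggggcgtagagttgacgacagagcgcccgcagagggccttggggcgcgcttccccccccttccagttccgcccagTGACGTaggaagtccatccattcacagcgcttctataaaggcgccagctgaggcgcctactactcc
Dusp1: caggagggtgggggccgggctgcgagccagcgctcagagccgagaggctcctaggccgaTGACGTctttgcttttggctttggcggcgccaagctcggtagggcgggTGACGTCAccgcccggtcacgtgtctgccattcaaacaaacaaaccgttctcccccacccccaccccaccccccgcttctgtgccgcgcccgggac
The Fos match began 66 bases before the start, and the Dusp1 matches 191 and 143 bases before it. Of the 9 members 8 have a promoter window in the RefSeq table. Only the 250 bases before the start were read, so a site further upstream would not be seen. TGACGT on either strand was found in 3 of the 8 (Fos, Dusp1 and Atf3) against 6.47% of all 32851 windows of the same length. The AP-1 site TGANTCA was in 0 of the 8 and in 6.75% of all windows. The CArG box, the site of serum response factor, was in 1 of the 8, 58 bases before the start of Zfp36, and in 1.47% of all windows. A match is a description of letters, and the libraries hold no measure of binding.

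Fosb, a close relative of Fos, was 33.3 and 18.8 CPM in T, 69.9 and 41.4 in B, 105 and 46.6 in NK, 218 and 202 in macrophage and 276 and 152 CPM in neutrophil barcodes (control first). It was thus highest in the 2 myeloid lineages, and in the CD4-Cre library macrophages and neutrophils did not differ beyond counting error. Atf3, a stress-induced factor that often represses its targets, was mostly myeloid. It had 274 and 284 UMIs in macrophages, or 207 and 192 CPM, and 45 and 23 UMIs in neutrophils, or 108 and 99.8 CPM. In T barcodes it was 3.17 and 3.57 CPM, in B barcodes 12.1 and 6.59 CPM, and in NK barcodes 1 and 0 UMIs. Macrophages exceeded T by 65.2-fold (43.5 to 102) and 53.8-fold (40.1 to 73.4).

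The 3 Jun genes did not share one pattern. Jun was a macrophage gene here: 471 and 482 CPM in macrophages, 110 and 104 in B, 44.9 and 39.5 in NK, 38.7 and 34.1 in T and 31.2 and 95.4 CPM in neutrophils, where it rested on 13 and 22 UMIs. In the control library neutrophil Jun did not differ from T beyond counting error (0.806-fold, 0.425 to 1.40), while in the CD4-Cre library it was 2.80-fold higher (1.74 to 4.28). Junb was 8111 and 7473 CPM in neutrophils against 1941 and 1873 in B, 1551 and 1425 in NK, 1535 and 1642 in macrophage and 1330 and 1310 CPM in T barcodes. Outside neutrophils the Junb levels lay close together, with macrophages only 1.15-fold and 1.25-fold above T. Jund was 689.5 and 837 CPM in macrophages and 701 and 584 CPM in T barcodes, which in the control library did not differ beyond counting error. Neutrophils, at 1884 and 1800.0 CPM of Jund, exceeded T by 2.69-fold and 3.08-fold. B barcodes had 1106 and 1016 CPM of Jund and NK barcodes 1041 and 818 CPM. So neutrophils carried much Fos and Junb RNA with little Jun, and macrophages carried Fos and Jun with a Junb level near that of T barcodes.

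Ier2, an early gene for a small nuclear protein, was 2585 and 2303 CPM in neutrophils and 419 CPM in T barcodes of both libraries, with B at 746 and 737, NK at 684 and 649 and macrophages at 664 and 771 CPM. The 3 middle lineages lay close together: NK and macrophages in the control library, and macrophages and B in the CD4-Cre library, did not differ beyond counting error. Zfp36 was 3404 and 3886 CPM in neutrophils, 1264 and 1366 in macrophages and 788 and 848 in B barcodes. It did not differ beyond counting error between T, at 253 and 285 CPM, and NK, at 227 and 264 CPM. B barcodes exceeded T by 3.11-fold and 2.97-fold for Zfp36, more than for any other member in both libraries except Jun in the CD4-Cre library and Atf3 in the control.

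**Figure D2:**
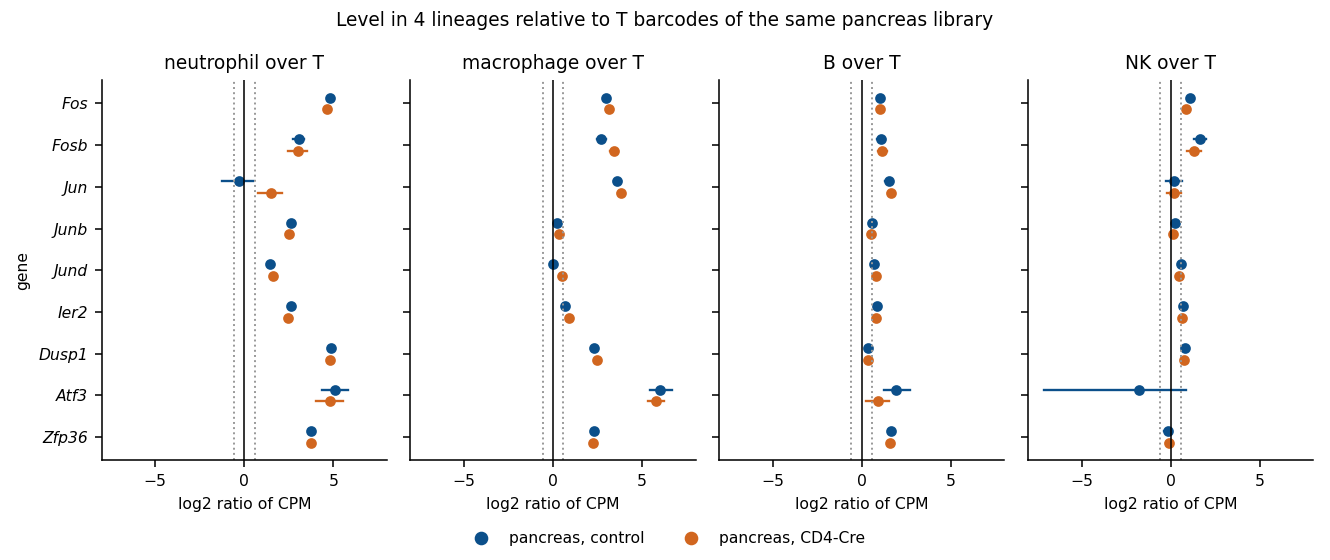
Log2 ratio of each gene's CPM in B, NK, macrophage and neutrophil barcodes over T barcodes of the same pancreas library, with 95% intervals for counting error. In neutrophils 8 of 9 genes lie above the 1.5-fold line in both libraries, and Jun is the exception.

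A gene was counted as higher in a lineage when its CPM was at least 1.5-fold that of T in both pancreas libraries. In neutrophils 8 of the 9 members passed, all but Jun, where 19.4% of the 10242 genes measured did. Macrophages had 7 (all but Junb and Jund) against 18.1% of all genes, and B barcodes 7 (all but Junb and Dusp1) against 13.5%. In these 3 lineages 0 members were at least 1.5-fold lower in both libraries, against 35% of all genes in neutrophils, 28.6% in macrophages and 16.2% in B barcodes. NK barcodes had 4 (Fos, Fosb, Ier2 and Dusp1) against 13.1%, and 1 member, Atf3, was counted lower there, against 11.1%. The NK count fell to 2, Fos and Fosb, under each of 3 other scalings, and the lower call on Atf3 rests on 1 and 0 UMIs. The median log2 ratio of the 9 genes over T was 3.05 and 3.01 in neutrophils, 2.32 and 2.48 in macrophages, 0.998 and 0.885 in B and 0.57 and 0.49 in NK barcodes. Over all genes it was -0.64 and -0.23 in neutrophils and between -0.31 and 0.15 in the others.

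Other genes of the early response were read from a list of 23 transcripts with no member in it. Over T, 17 of the 23 were higher in neutrophils and 3 lower, where 19.4% and 35% of all genes were, among the 17 Egr1, a zinc finger factor induced by the same kinases, Btg2, an antiproliferative gene, Ppp1r15a, a phosphatase subunit of the stress response, and Socs3, a brake on cytokine signals. Egr1 was 1796 and 1748 CPM in neutrophils and 63.0 and 80.2 CPM in T barcodes. Btg2 was 2614 and 2238 CPM against 338 and 325 CPM. In macrophages 10 of the 23 were higher and 5 lower, against 18.1% and 28.6% of all genes. B barcodes had 9 higher and 6 lower, against 13.5% and 16.2%, and NK barcodes 5 and 3, against 13.1% and 11.1%. Of the 4 lineages neutrophils had the most on the higher side. Of 12 other AP-1 partners of the bZIP family, 9 were measurable between neutrophils and T. Fosl2 and Mafg were higher, a share near the 19.4% of all genes, and Batf was lower, against 35%. Fosl2, a Fos relative, was 274 and 191 CPM in neutrophils and 14.3 and 11.1 CPM in T. Of 12 upstream kinases and factors 2 were higher in neutrophils and 2 in macrophages, and 4 and 3 respectively were lower, shares near those of all genes given above. Heat shock genes, which mark another form of handling stress, went the other way in neutrophils. There 7 of 8 measurable were lower, against the 35% of all genes, and 0 higher. Hspa1a and Hspa1b had too few UMIs to be among the 8. In macrophages, where 10 were measurable, these 2 were higher (18.1% of all genes) and 4 others lower (28.6%).

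Within a lineage, the 9 genes were also compared barcode by barcode, after each barcode was thinned to 1000 UMIs so that depth was equal. The median neutrophil barcode then held 36 (control) and 35 (CD4-Cre) UMIs of the 9 genes, the median macrophage 7 and 8, B 5 and 5, NK 4 and 4, and T 3 and 3. The share of barcodes with at least 4 of the 9 genes detected was 94.9% and 92.4% in neutrophils, 63.0% and 73.1% in macrophages, 38.9% and 36.6% in B, 29.6% and 21.3% in NK and 12.3% and 11.2% in T barcodes. Nearly every neutrophil thus carried several members. No member UMI was found at this depth in 11.8% and 11.1% of T, 11.1% and 0.746% of macrophage and 0.735% and 1.27% of neutrophil barcodes. No level of the members in free RNA was measured, so these shares have no background beside them.

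Pearson correlations between members across the barcodes of a library are descriptions, since the barcodes share a library and, in neutrophils, a few very abundant transcripts. The closest pairs were in neutrophils, where Fos and Junb had r = 0.680 (136 barcodes) and 0.715 (79 barcodes), Junb and Dusp1 0.659 and 0.803, and Fos and Dusp1 0.628 and 0.626. Of 36 pairs 24 in each library had r of at least 0.1, against 14.7% and 21.1% of all pairs of genes of sufficient detection, and 21 did so in both. Among the 7 members with a UMI in at least 10% of thinned barcodes, the limit also set for all genes, 19 and 21 of 21 pairs did. In macrophages 29 and 21 of 36 pairs did, against 13.9% and 13.3%, 18 in both, with Fos and Zfp36 at 0.510 and 0.316. In B barcodes 13 of 36 pairs did in each library, against 0.512% and 0.308%, 12 in both, with Junb and Ier2 at 0.254 and 0.239. The B correlations were small but met on the same pairs, chiefly those among Fos, Junb, Jund, Ier2 and Zfp36. Passing in both libraries was not counted over all pairs of genes, so the counts in both have no share beside them. In T barcodes 9 of 28 and 3 of 36 pairs reached 0.1 (0.75% and 0.531% of all pairs), and the highest r was 0.169 and 0.128. In NK barcodes 11 and 5 of 28 did (6.25% and 3.72%), and in node T barcodes 2 and 1 of 28 (0.26% and 0.317%). Counts of single members are sparse in T and NK barcodes, and these weak values are not read further.

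**Figure D3:**
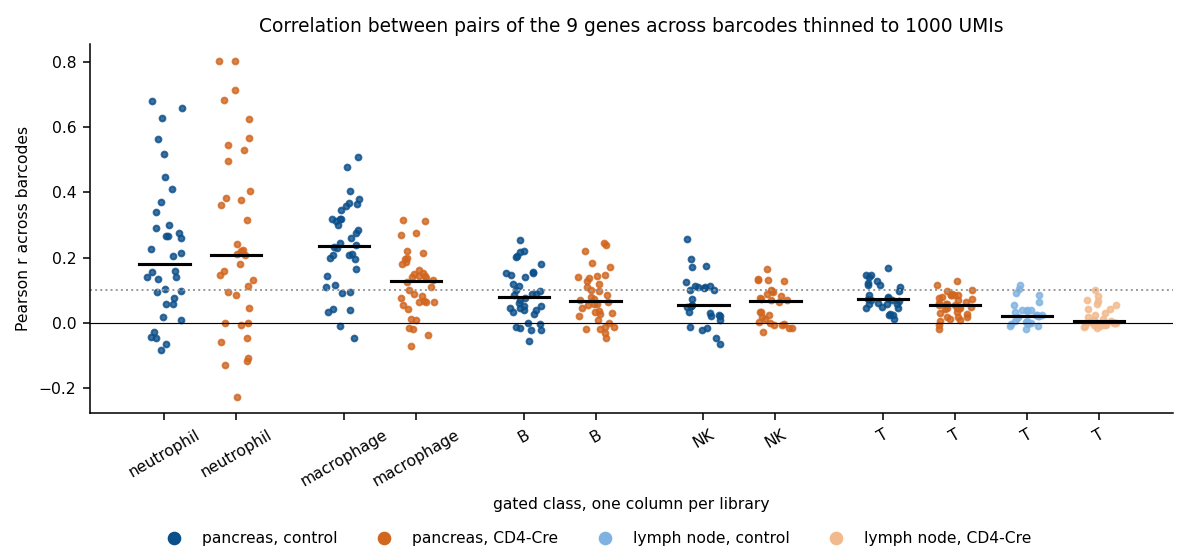
Pearson r for every pair of the 9 genes across barcodes thinned to 1000 UMIs, by lineage and library, with the median marked. Medians are 0.181 and 0.209 in neutrophils, 0.236 and 0.129 in macrophages, 0.080 and 0.067 in B, and under 0.075 in NK and T barcodes.

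In neutrophils the r of a member with the sum of the other 8 was 0.774 and 0.865 for Junb, 0.724 and 0.654 for Fos and 0.652 and 0.735 for Dusp1. Jun, with a UMI in 3 of 136 and 4 of 79 thinned barcodes, was too sparse there for its r to be read, and Fosb and Atf3 were also sparse. In neutrophils the members' summed level fell as S100a8 and S100a9, the calcium-binding proteins that dominate neutrophil RNA, took more of the barcode (r = -0.350 and -0.366), and it was lower in deeper barcodes (r with log UMIs -0.598 and -0.588). With the S100 UMIs taken out of the total, 21 and 26 of 36 neutrophil pairs still had r of at least 0.1, with medians of 0.201 and 0.185. The part of depth in these values was not tested. Genes outside the 9 were ranked by their mean r with the summed level over the lineages and libraries where each was well detected, which are not the same for every gene: the genes with 4 pairs were scored in macrophages and neutrophils only. The first 10 were Egr1 (mean r 0.430 over 4 lineage and library pairs), Il1b (0.391, 4 pairs), Ccl6 (0.352, 4 pairs), Ifitm2 (0.342, 4 pairs), Msrb1 (0.304, 4 pairs), Cebpb (0.261, 6 pairs), Alox5ap (0.247, 4 pairs), Cd14 (0.241, 4 pairs), Btg2 (0.210, 12 pairs) and Gm26532 (0.184, 6 pairs). Il1b, the cytokine interleukin 1 beta, followed the members in neutrophils (0.662 and 0.833) and not in macrophages (0.073 and -0.004). Btg2 was detected widely enough to be scored in all 5 pancreas lineages and in node T barcodes, from 0.079 in CD4-Cre NK to 0.706 in CD4-Cre neutrophils among the pancreas lineages. Over the same 4 macrophage and neutrophil sets its mean r was 0.423, close to the 0.430 of Egr1, so its place in the ranking follows from where it was scored.

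T barcodes allow the 2 tissues to be set side by side, with the limits on tissue, age and selection given above. Summed over the 9 genes the level was 3242 and 3099 CPM in pancreas T barcodes and 954 and 771 CPM in node T barcodes. Fos was 242 and 230 CPM in the pancreas and 8.26 and 3.76 CPM in the node, a difference of 29.3-fold (24.3 to 35.6) in the controls and 61.1-fold (50.1 to 75.2) in the CD4-Cre libraries. Dusp1 was 222 and 215 against 22.2 and 16.5 CPM, or 9.96-fold and 13.1-fold. Junb was 1330 and 1310 against 199.96 and 164 CPM, or 6.65-fold and 8.00-fold. Both pancreas libraries lay above both node libraries for these 3 genes.

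Fosb in node T barcodes rested on 4 and 10 UMIs, and its ratios, 118-fold (45.5 to 436) and 50.5-fold (27.0 to 106), are correspondingly wide. Atf3 rested on 2 and 4 UMIs there. Jund differed by 3.50-fold and 4.52-fold, Jun by 3.15-fold and 2.80-fold and Ier2 by 1.604-fold and 1.88-fold. Zfp36 was the exception, with 253 and 285 CPM in the pancreas and 249 and 222 CPM in the node, a ratio of 1.02 (0.962 to 1.07) in the controls and 1.29 (1.24 to 1.34) in the CD4-Cre libraries. Thus 8 of 9 members were at least 1.5-fold higher in pancreas T barcodes in both genotypes, against 14.3% of all genes, and 0 lower against 3.21%, with a median log2 ratio of 2.73 and 2.9996 where all genes had 0.03 and 0.13. Node T barcodes were deeper, with a median of 4708.5 and 4516 UMIs against 3437 and 3514.

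**Figure D4:**
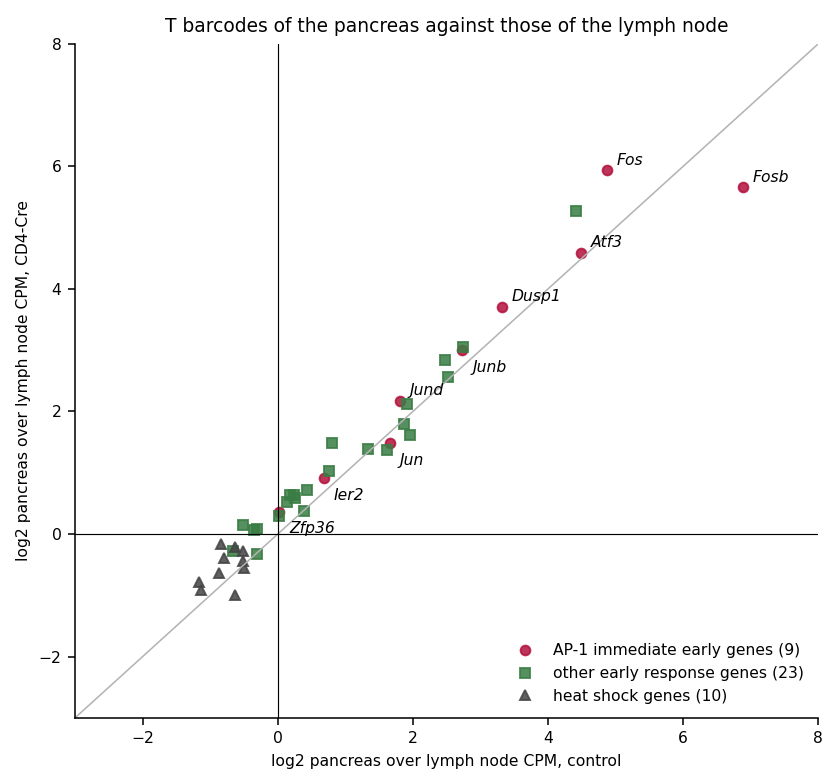
Log2 ratio of pancreas over lymph node CPM in T barcodes, control on the horizontal and CD4-Cre on the vertical axis. Shown are the 9 genes, 23 other early response genes and 10 heat shock genes, without intervals. Of the 9 genes 8 lie well above 0 on both axes, Fos and Fosb farthest, while Zfp36 lies nearest 0. All 10 heat shock genes lie below 0 on both.

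The gap was present in both T subsets. In CD4 T barcodes, 7 of the 8 members with enough UMIs were higher in the pancreas (9.91% of all genes) and 0 lower (3.09%), Fos at 277 and 243 against 10.3 and 4.64 CPM. In CD8 T barcodes 6 of 8 were higher (14.4% of all genes) and 0 lower (3.06%), Fos at 157 and 128 against 3.51 and 2.89 CPM. Jun was 4.80-fold and 3.08-fold higher in pancreas CD4 T barcodes, but in CD8 T barcodes only 1.25-fold (0.769 to 1.99) and 1.72-fold (1.24 to 2.38). Whether CD4 and CD8 T barcodes differ in this was not tested. The values are over all barcodes of a subset, whatever the mix of T cell states in each tissue, and no account is taken of that mix.

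RNA of other pancreas cells was measured in the same T barcodes. The neutrophil genes S100a8 and S100a9 were 1.22 and 0.794 CPM and 3.30 and 1.72 CPM in pancreas T barcodes, against 69663 and 57621 CPM and 102659 and 86404 CPM in neutrophils. The gap between neutrophils and T was far wider for the S100 genes than the 27.6-fold and 25.1-fold of Fos, but not for every gene, as Lyz2 below shows. The macrophage genes Csf1r, Apoe and Lyz2 summed to 219 and 342 CPM in pancreas T barcodes and to 6.78 and 5.43 CPM in node T barcodes, against 22502 and 20197 CPM in pancreas macrophages. Lyz2 alone was 207 and 332 CPM in pancreas T barcodes, and neutrophils also carried it, at 6810 and 7673 CPM. Its gap between neutrophils and T was far narrower than that of the S100 genes. Apoe was 6.84 and 3.57 CPM in pancreas and 4.59 and 2.57 CPM in node T barcodes. Csf1r was 6.10 and 6.88 CPM against 0.071 and 0.149 CPM. All 5 exocrine genes read (Prss2, Cpa1, Cela3b, Clps and Try5) were found in pancreas T barcodes, at 91.4 and 387 CPM in sum, and at 0.989 and 3.72 CPM in node T barcodes. The part of such RNA in the members' T levels was not tested.

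Outside the 9, the early list split between the tissues. Of its 23 genes 11 were higher in pancreas T barcodes in both genotypes, against 14.3% of all genes, and 0 lower, among them Btg2, Ppp1r15a, the NF-κB regulators Tnfaip3 and Nfkbiz, and the zinc finger factor Klf6. Ppp1r15a was 129 and 126 CPM against 19.4 and 15.1 CPM. Egr1, which was scored against the members in macrophages and neutrophils but not in T barcodes, was 63.0 and 80.2 CPM in the pancreas and 90.1 and 72.1 CPM in the node, with log2 ratios of -0.52 and 0.15. Of 9 measurable AP-1 partners 5 (Fosl2, Batf, Batf3, Maff and Mafg) were higher in the pancreas, against the same 14.3%, and of 12 upstream genes 2 were, a share near that of all genes. Heat shock genes ran the other way, with all 10 below 0 on the log2 scale in both genotypes and 4 at least 1.5-fold lower, against 3.21% of all genes. Of these Dnaja1, a cochaperone named here after its values were seen, was 290 and 383 CPM in the pancreas and 651 and 661 CPM in the node.

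B barcodes gave one further view, in the control libraries only and with 42 node barcodes, under the 50 used elsewhere as a minimum. Fos had 0 UMIs in node B barcodes and 484 CPM in pancreas B barcodes, at least 33.8-fold higher against a floor of 3 UMIs. Fosb had 0 UMIs against 69.9 CPM, at least 4.89-fold higher, and Dusp1 1 UMI against 279 CPM, a ratio of 58.4 (10.5 to 2310). Junb was 1941 against 162 CPM, or 12.0-fold (8.56 to 17.3), Jund 9.28-fold, Ier2 5.21-fold and Zfp36 1.68-fold (1.38 to 2.08) higher. Jun, at 1.64-fold (0.969 to 3.03), did not differ beyond counting error, and Atf3 had 0 UMIs in the node. Of the 9 genes 8 were past 1.5-fold, against 18% of all genes. Fos, Dusp1 and Junb were thus far apart between the tissues in B as in T barcodes, and Zfp36 again had one of the smaller ratios, whereas for Atf3 the B counts allow no comparison.

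Genotypes were compared within a tissue and lineage. Fosb was lower in the CD4-Cre pancreas library in 4 of 5 lineages. Its log2 ratio was -0.83 (-1.07 to -0.58) in T, -0.76 (-1.01 to -0.51) in B, -1.17 (-1.60 to -0.74) in NK and -0.86 (-1.45 to -0.31) in neutrophil barcodes, and -0.11 (-0.35 to 0.13) in macrophages. The Fosb ratios of B, NK and neutrophil barcodes thus lay beside that of T barcodes. With 1 library a genotype a difference between genotypes and one between the 2 preparations cannot be told apart. Fos lay below 0 in the same 4 lineages but by less: its log2 ratio was -0.08 (-0.16 to 0.004) in T, -0.08 (-0.16 to 0.004) in B, -0.29 (-0.45 to -0.13) in NK and -0.21 (-0.31 to -0.12) in neutrophil barcodes, and 0.11 (0.03 to 0.18) in macrophages.

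In pancreas T barcodes 1 of 9 members, Fosb, was at least 1.5-fold lower (6.12% of all genes) and 0 higher (3.17%). In B barcodes Fosb and Atf3 were lower (4.01% of all genes), Atf3 on 51 and 40 UMIs with a log2 ratio of -0.88 (-1.51 to -0.25). Among NK barcodes 1 of 8, Fosb, was lower (7.04%), and macrophages had 0 lower (11.1%) and 0 higher (8.44%). Neutrophils had 1 lower, Fosb (10.3%), and 1 higher, Jun (16.4%), the latter on 13 and 22 UMIs with a log2 ratio of 1.61 (0.56 to 2.72). Cd74, high in B barcodes and macrophages, was 88.8 CPM in control and 2728 CPM in CD4-Cre neutrophils. The macrophage genes Csf1r (252 and 208 CPM) and Apoe (12.0 and 8.67 CPM) were not higher in the CD4-Cre library. The part of other cells' RNA in the Jun ratio was not tested. Fosb was also lower in both T subsets, at -0.73 in CD4 T, where Atf3 was counted too (6.53% of all genes), and at -1.34 in CD8 T barcodes (8.61%). No member was at least 1.5-fold higher in B (6.01% of all genes), NK (8.49%), CD4 T (3.69%) or CD8 T barcodes (6.16%).

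In node T barcodes Fos and Jund, 2 of the 7 members with enough UMIs, were at least 1.5-fold lower in the CD4-Cre library, against 6.37% of all genes. All 7 lay below 0, with a median log2 ratio of -0.29, where the median over all genes was -0.09. The 2 node libraries also differed in the barcodes left out: 1.01% in control and 9.39% in CD4-Cre had over 10% mitochondrial UMIs. The part of this in the ratios was not tested. The Fos log2 ratio was -1.14 (-1.54 to -0.74), from 117 and 101 UMIs in libraries of 2756 and 5518 T barcodes. With a pseudocount of 10 CPM, above the Fos level of both libraries, it was -0.41, short of 1.5-fold. Jund, at 200.03 and 129 CPM, had -0.63 (-0.70 to -0.56), which came to -0.54 and -0.53 under TMM and DESeq2 scaling, short of 1.5-fold. The same 2 genes were counted in node CD4 T barcodes (6.42% of all genes), and Dusp1 alone, at -0.71 (-1.23 to -0.19), in node CD8 T barcodes (7.44%). In the node 0 members were higher in T (1.84% of all genes), CD4 T (2.45%) or CD8 T barcodes (1.93%). Fosb, lower in pancreas T barcodes, had 4 and 10 UMIs in node T barcodes, too few to set beside it.

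**Figure D5:**
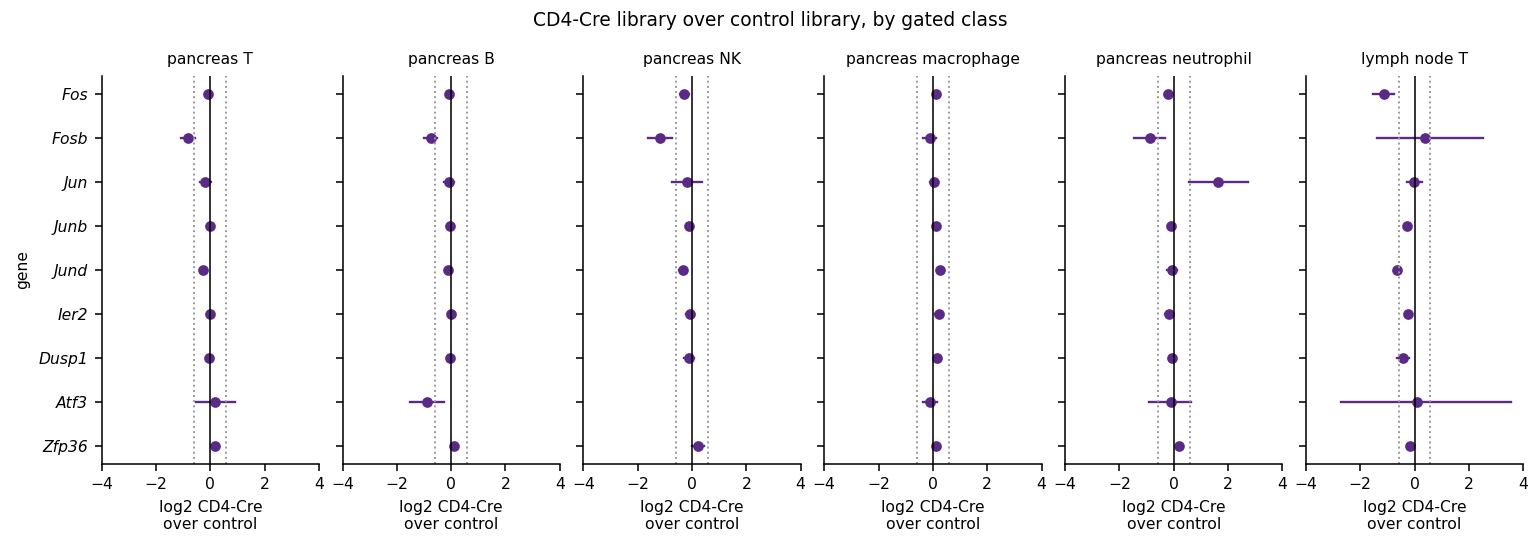
Log2 ratio of CD4-Cre over control CPM for each gene, by tissue and lineage, with 95% intervals for counting error. Fosb lies below 0 in pancreas T, B, NK and neutrophil barcodes, and most other pancreas values lie near 0.

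By position, the 9 genes lie on 6 chromosomes of GRCm38 (GENCODE M21), all protein coding. Fos spans chr12:85473890-85477273, Dusp1 chr17:26505590-26562128, Atf3 chr1:191170296-191218039, Jun chr4:95049034-95052222, Fosb chr7:19302696-19310051 and Zfp36 chr7:28376784-28380253. Jund (70698949 to 70700616), Ier2 (84661331 to 84662852) and Junb (84974484 to 84978718) are all on chromosome 8. Jun, Junb, Jund and Ier2 have 1 exon, 4 of 9 against 6.23% of 21866 coding genes, which is a known trait of early genes. Junb overlaps Prdx2, a peroxiredoxin with 9683 UMIs in these libraries, on the opposite strand, and Dusp1 overlaps Ergic1. Whether reads were counted by strand is not given in the sources used here, so the counts of these 2 members are uncertain to that extent.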

How the data were processed

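Gene counts (UMIs) per barcode were used as the authors deposited them, in 4 filtered matrices whose headers name software version 3.0.0; per the submitters' processing notes, Cell Ranger and the mm10 build were used. The authors' settings for introns and strand are not given in the sources used here.

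Barcodes with at least 500 genes and at most 10% mitochondrial UMIs were kept. A lineage needed at least 3 UMIs of its markers from at least 2 markers, with every other lineage's sum at most 0.2 of it: Cd3d, Cd3e, Trac, Cd5 and Cd6 for T, Cd79a, Cd79b, Ms4a1 and 1 other for B, Ncr1, Klre1, Klri2, Klrb1f and Klrb1c for NK, C1qa, C1qb, C1qc, Mertk and Fcgr1 for macrophages, Csf3r, Cxcr2, Retnlg, Mmp9 and Hdc for neutrophils. Barcodes with plasma or dendritic markers past that share were left out. No doublet caller was run, and the share limit was the only guard against doublets. T barcodes with Cd8a or Cd8b1 but without Cd4 were called CD8, and those with Cd4 alone CD4. The gated share of kept barcodes was 83.9% to 97.8%.

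UMIs were summed per lineage and library and divided by the lineage's total, with exact Poisson intervals. Ratios have exact conditional binomial intervals and used genes with at least 20 UMIs over both sums, and a fold against 0 UMIs used a floor of 3. Correlations used log(1 + UMIs per 10000) on thinned barcodes, for genes found in at least 10% of them where all genes are given. The genes named beside the 9 are list members past 1.5-fold in the same direction in both pancreas libraries and the 10 genes most like the summed level. The members and lists were chosen with earlier results of these data known. Python 3.11.15, numpy 2.4.6 and scipy 1.17.1 were used, with edgeR 4.0.16 and DESeq2 1.42.0 in R 4.3.3 only for other scalings. The steps were tested on simulated counts. Alternatives were 14 set out at the start and others chosen after seeing the data: every setting for B barcodes between tissues, TMM and DESeq2 scaling for T barcodes between tissues, and leaving out the 10% of barcodes highest in the members. The other B marker and 1 further split of T barcodes are not reported here.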

Additional observations from a re-analysis of the deposited data

Results flagged for a closer look

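Zfp36 in T barcodes moved in opposite directions with genotype in the 2 tissues: on the log2 scale the CD4-Cre library stood at 0.17 relative to control in the pancreas and at -0.17 in the lymph node. Both intervals lay on their own side of 0, from 0.10 to 0.25 and from -0.23 to -0.11. The difference between the tissues was not tested, since each tissue has 1 library a genotype. Under TMM and DESeq2 scaling both node values came to -0.07, while the pancreas values were 0.18 and 0.17.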

How the results depend on the processing

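Of 480 recomputed counts of members or pairs 432 stayed within 1.5 times the first value and 48 did not. Of 2424 single values 2057 were labelled as kept, 364 as moved and 3 as reversed. A ratio was kept when it stayed inside its interval, and a median r when its change was under a fixed limit. Only ratios past 1.5-fold and medians of r of at least 0.1 could be labelled reversed. Sign changes of smaller values are not among the 3. No paired analysis was possible because each group has 1 library. Of the neutrophil ratios over T, Fos ranged from 4.12 to 5.51, Dusp1 from 4.29 to 5.56 and Junb from 1.98 to 3.33 on the log2 scale, and Jun, from -0.84 to 1.96, changed sign with the scaling and library. In pancreas T, B, NK and neutrophil barcodes the Fosb genotype ratio stayed between -1.22 and -0.59. Scalings moved the median of all genes by up to 0.72 (neutrophil over T, DESeq2).

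NK over T fell from 4 members higher to 2 under TMM, DESeq2 and a total without ribosomal, mitochondrial and exocrine genes, and its 1 lower member went to 0 with equal barcode weight, a pseudocount of 10 CPM, at least 100 UMIs, or without the 10% of barcodes highest in the members. For genotype, allowing other markers up to 0.5 gave 1 higher in pancreas T and in CD8 T, 1 lower in B and in CD4 T, and 2 lower in node CD8 T, as a marker sum of 6 did. At least 100 UMIs gave 1 lower in B and CD4 T and 0 higher in neutrophils, and equal weight 2 lower in neutrophils. The pseudocount gave 1 lower in B, 0 in CD4 T, 0 in node CD8 T and 1 in node T and node CD4 T (Fos lost in node T), as did TMM, DESeq2 and the reduced total in the latter pair (Jund lost in node T). Between tissues, equal weight gave 1 lower in B.

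Atf3 in NK over T reversed to 0.12 (control) and 0.83 (CD4-Cre) without that top 10% and to 0.69 with equal weight, all from 1 or 0 UMIs. Pairs with r of at least 0.1 rose with depth: thinned to 2000 UMIs, T had 14 and 12, CD4-Cre B 22, CD4-Cre NK 16 and node T 5 and 4, and without thinning T had 24 and 18, B 24 and 24, NK 24 and 17 and node T 7 and 6. CD4-Cre NK had 9 with other markers up to 0.5 and 8 by Spearman, and node T 1 (control, mitochondrial limit of 5% or Spearman) and 0 (CD4-Cre, Spearman). The number of barcodes, 81 at the fewest, limits neutrophils.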

Other observations

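Barcodes with dendritic cell markers (46 in the pancreas control and 68 in the CD4-Cre library) belonged to no compared lineage. Their summed level of the 9 genes was 4897 and 6359 CPM. Fos was 1009 and 1505 CPM, Zfp36 1033 and 1228 CPM and Jun 69.1 and 202 CPM. The control value has under 50 barcodes behind it.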
